A study of Homo sapiens with 4 samples.

Results

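The mitochondrial ribosomal protein genes are the nuclear genes named MRPL or MRPS that encode proteins of the large and small subunits of the mitochondrial ribosome. They were taken as all genes whose symbol starts with MRPL or MRPS followed by a digit, pseudogenes left out, with at least 1 probe set that names no other gene. This gave 73 of the 18417 genes measured, from 77 probe sets, with 50 members in the large subunit and 23 in the small subunit. Expression was measured on 4 microarrays, with 1 siControl array and 1 siEfp array for each of Ishikawa and HEC-1A, which are established human endometrial cancer cell lines. siEfp is a small interfering RNA against Efp, the estrogen-responsive RING finger ubiquitin ligase that is also called TRIM25, and siControl is the control siRNA. The cells were kept in DMEM with 10% serum and 150 ng of total RNA was used for each array. In Ishikawa cells the siRNA was the duplex siEfp #A and RNA was taken at 48 h, while no source used here gives the duplex or the time for HEC-1A. The values are RMA signals on the log2 scale, on which a difference of 1 means a 2-fold difference. Unless another pair is named, a difference is the siEfp array's value minus that of the siControl array of the same line. It rests on 1 array per condition and has no test of its own, and fewer cells that express a gene cannot be told apart from less RNA per cell.

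The mitochondrial ribosome translates the few messenger RNAs that mitochondrial DNA encodes, all for subunits of the respiratory chain and ATP synthase. Its RNAs come from mitochondrial DNA, but all its proteins are encoded in the nucleus, made by cytosolic ribosomes and imported. Many members have a counterpart in bacterial ribosomes, and the others are specific to mitochondria. Respiration also needs the products of other nuclear genes, such as those of complex I, the assembly factors of the ribosome and the enzymes that charge mitochondrial tRNAs.

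TRIM25, the target of the siRNA, had a signal of 9.42 in siControl and 7.96 in siEfp in Ishikawa cells, and of 9.50 and 7.93 in HEC-1A cells. The difference was -1.46 and -1.57, so the labels of all 4 arrays matched the target. Over all probe sets the arrays of a line correlated at 0.992 and 0.993, and over the 73 members at 0.984 and 0.986. Arrays of different lines correlated between 0.956 and 0.958 over all probe sets. Of 5 epithelial markers, KRT8, KRT18 and KRT19 lay between 8.603 and 12.4 on every array. EPCAM was 11.24 and 11.24 in Ishikawa cells and 7.26 and 7.05 in HEC-1A cells. CDH1, which encodes E-cadherin, was 10.2 and 9.62 in Ishikawa cells but 4.07 and 3.74 in HEC-1A cells, below the lower quartile of all genes of 4.47. ESR1, the estrogen receptor gene, was 6.91 and 6.65 in Ishikawa cells and 4.45 and 4.77 in HEC-1A cells, while PGR, the progesterone receptor gene, lay below that quartile on all 4 arrays. The endothelial markers stayed between 3.14 and 5.21, the immune markers between 2.90 and 4.997, and the stromal markers between 2.79 and 7.40.

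The mitochondrial ribosomal protein genes were well expressed in both lines. In each line most of them differed by less than 1.2-fold between siEfp and siControl. The median signal of a member was 9.04 against 6.31 for all genes, and 71 of the 73 reached that median. The median over the members was 9.01 in siControl and 9.12 in siEfp in Ishikawa, and 9.12 and 9.15 in HEC-1A. In each line 47 members had a higher signal in siEfp and 26 a lower one. That is 64.4% higher, where 52.2% of all genes were higher in Ishikawa and 52.1% in HEC-1A, and 35.6% lower, where 47.6% and 47.7% of all genes were lower. The median difference was 0.059 in Ishikawa, against 0.013 for all genes, and 0.098 in HEC-1A, against 0.010 for all genes. Among the brighter part of all genes, those with at least the median signal, which lie closer to the members in brightness, the median difference was -0.027 and 0.015, and 54.4% and 47.1% of them were lower. The SD of the members' differences, 0.235 in Ishikawa and 0.223 in HEC-1A, was several times these medians and smaller than the SD over all genes of 0.297 and 0.258. In 30 of the 73 members the difference was below 0.2 in size in both lines, and the share of all genes was not computed.

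**Figure D1:**
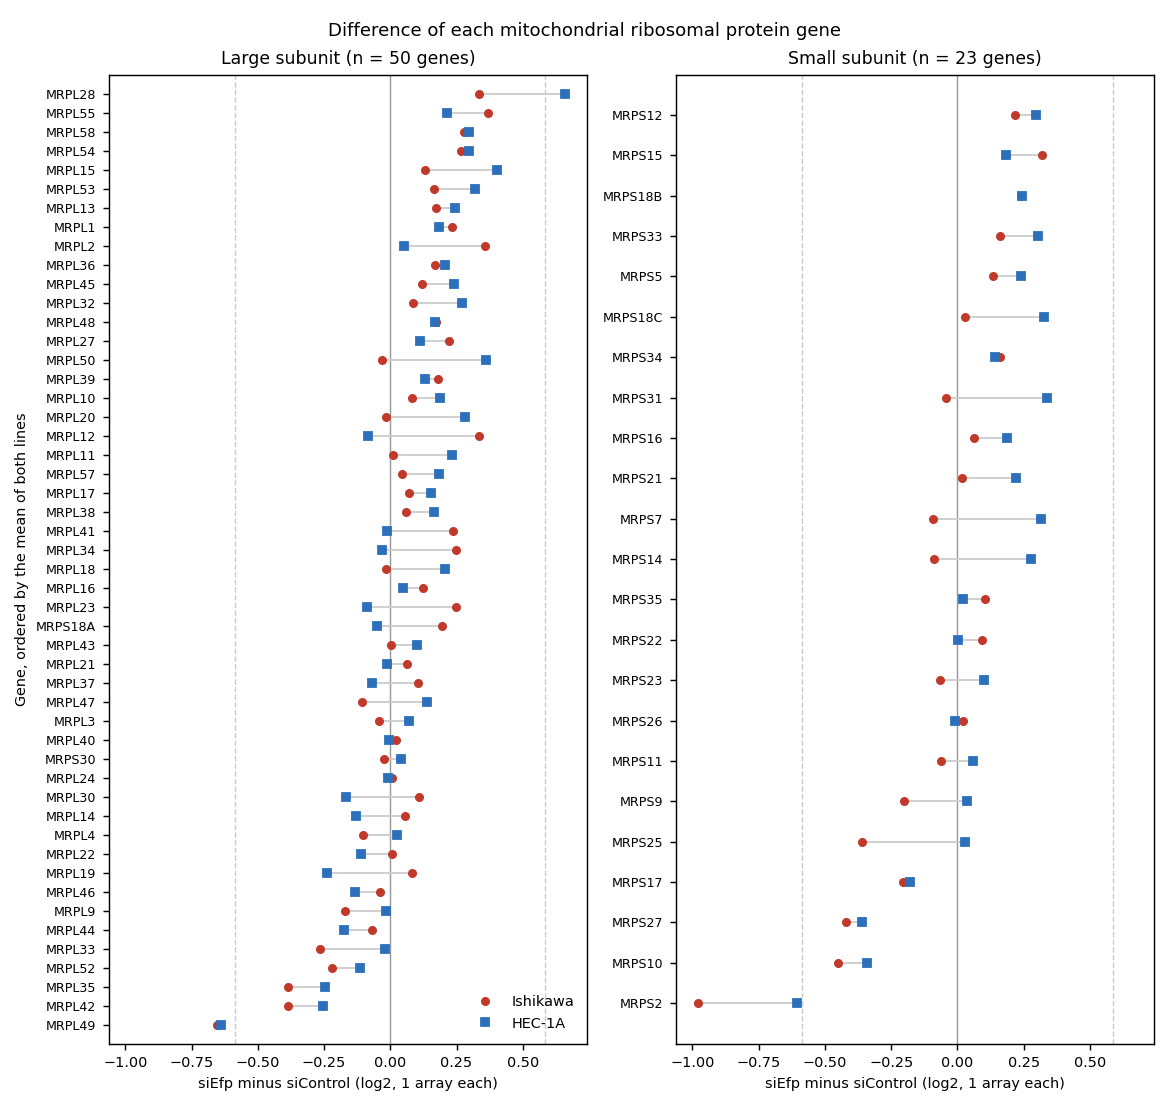
Difference between siEfp and siControl (log2, 1 array each) of every mitochondrial ribosomal protein gene, large subunit on the left and small subunit on the right, with Ishikawa as red circles, HEC-1A as blue squares and dashed lines at 1.5-fold. Most points lie within 0.4 of 0, while MRPS2 and MRPL49 lie past the lower line in both cell lines and MRPL28 past the upper line in HEC-1A.

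Few members reached a 1.5-fold difference. In Ishikawa 2 members were at least 1.5-fold lower, which is 2.74% of the members where 3.72% of all genes were that much lower, and 0 were at least 1.5-fold higher, where 1.49% of all genes were. In HEC-1A 2 members were at least 1.5-fold lower, where 2.04% of all genes were, and 1 was at least 1.5-fold higher, where 1.34% of all genes were. The 2 lower members were MRPS2 and MRPL49 in each line, and 0.961% of all genes were that much lower in both. Of the 9209 genes with at least the median signal, 489 were that much lower in Ishikawa, 258 in HEC-1A and 160 in both. The higher member was MRPL28. At 1.2-fold, 8 members were lower and 7 higher in Ishikawa, where 15.2% and 14.5% of all genes were, and 4 were lower and 14 higher in HEC-1A, where 12.5% and 12.7% of all genes were. The 14 higher members in HEC-1A are 19.2% of the set, and the 4 lower ones are 5.48%. At 2-fold, 0 members were lower or higher in either line, where 0.804% of all genes were lower and 0.136% higher in Ishikawa, and 0.271% lower and 0.103% higher in HEC-1A.

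Among the proteins of the small subunit, which holds the messenger RNA and its decoding site, MRPS2 stood furthest from 0. Its gene is one in which inherited defects cause a combined deficiency of the respiratory chain. The signal of MRPS2 was 9.19 in siControl and 8.21 in siEfp in Ishikawa cells, and 10.44 and 9.84 in HEC-1A cells. The siEfp array was the lower one in each line, by a factor of 1.97 in Ishikawa and 1.52 in HEC-1A. Only 0.858% of all genes had a lower difference in Ishikawa and 1.78% in HEC-1A. The siEfp array of HEC-1A still lay above the siControl array of Ishikawa, so the gap between the lines was larger than the one between the siRNAs. MRPS10, another small-subunit protein with a bacterial counterpart, went from 8.77 to 8.32 in Ishikawa and from 9.43 to 9.08 in HEC-1A. MRPS27 encodes a mitochondria-specific protein with pentatricopeptide repeats, a fold that binds RNA. It went from 9.70 to 9.28 and from 10.13 to 9.77. In both genes the siEfp array was the lower one, by 0.45 and 0.34 for MRPS10 and by 0.42 and 0.36 for MRPS27.

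Other small-subunit genes were lower in siEfp in Ishikawa cells alone, or higher in HEC-1A cells. MRPS25 went from 8.77 to 8.40 in Ishikawa but from 8.53 to 8.56 in HEC-1A. MRPS7, whose bacterial counterpart starts the assembly of the head of the subunit, went from 9.44 to 9.34 in Ishikawa and from 9.12 to 9.44 in HEC-1A. MRPS31 went from 6.58 to 6.54 and from 6.98 to 7.32. These genes had differences of opposite sign in the lines, and their line-by-siRNA difference could not be tested with 1 array each. MRPS12, the counterpart of a bacterial protein at the decoding site, was higher in siEfp in both lines, at 8.32 and 8.54 in Ishikawa and 8.28 and 8.58 in HEC-1A. MRPS15 was also higher, at 11.34 and 11.66 in Ishikawa and 11.47 and 11.66 in HEC-1A. MRPS17 was lower in both, by 0.20 and 0.18. Over the 23 small-subunit genes, 12 were higher and 11 lower in Ishikawa, with a median of 0.016, and 18 were higher and 5 lower in HEC-1A, with a median of 0.141.

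In the large subunit, where the peptide bond is formed, MRPL49 was the gene furthest down in both lines. MRPL49 encodes a mitochondria-specific protein, and its signal was 8.83 in siControl and 8.18 in siEfp in Ishikawa cells, and 8.69 and 8.05 in HEC-1A cells. Both siEfp arrays lay below both siControl arrays, with differences of -0.66 and -0.64. MRPL42, also mitochondria-specific, went from 10.03 to 9.64 in Ishikawa and from 9.41 to 9.15 in HEC-1A. MRPL35, a protein with a bacterial counterpart, went from 8.96 to 8.57 and from 8.27 to 8.03. For these genes the siEfp array was lower in each line, by 0.39 in Ishikawa and 0.25 in HEC-1A. MRPL52 was lower by 0.22 and 0.11. MRPL33 went from 7.51 to 7.24 in Ishikawa, while its signal in HEC-1A was 7.57 and 7.55.

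MRPL28 was the member furthest up over both lines. It has a bacterial counterpart and is also known as the source of a melanoma antigen. Its signal was 10.03 in siControl and 10.36 in siEfp in Ishikawa cells, and 10.29 and 10.95 in HEC-1A cells. The siEfp array was the higher one in each line, by a factor of 1.26 in Ishikawa and 1.58 in HEC-1A, and 99.3% of all genes had a lower difference in HEC-1A. MRPL58 encodes a peptidyl-tRNA hydrolase that frees stalled mitochondrial ribosomes. It went from 9.33 to 9.61 in Ishikawa and from 9.42 to 9.72 in HEC-1A. MRPL54, among the dimmest members, went from 6.27 to 6.53 and from 5.86 to 6.16. MRPL55 went from 7.11 to 7.48 and from 7.37 to 7.58. In these 4 genes both lines showed the higher signal in siEfp, and in MRPL58, MRPL54 and MRPL55 each difference lay between 0.21 and 0.37. MRPL15 was higher by 0.13 in Ishikawa and by 0.40 in HEC-1A, with 9.30 and 9.43 in the first line and 9.94 and 10.35 in the second.

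In some large-subunit genes the difference was larger in 1 line or of opposite sign in the lines. MRPL12, a counterpart of the bacterial stalk protein that has also been found with the mitochondrial RNA polymerase, went from 9.68 to 10.01 in Ishikawa and from 9.42 to 9.34 in HEC-1A. MRPL2, from the core of the peptidyl transferase region, went from 8.76 to 9.12 in Ishikawa and from 9.24 to 9.29 in HEC-1A. MRPL50 was 9.80 and 9.77 in Ishikawa and 10.42 and 10.78 in HEC-1A. MRPL19 went the other way in HEC-1A, from 8.42 to 8.18, with 8.90 and 8.98 in Ishikawa. Over the 50 large-subunit genes, 35 were higher and 15 lower in Ishikawa, with a median of 0.076, and 29 were higher and 21 lower in HEC-1A, with a median of 0.062. The order of the subunits' medians was therefore different in the lines, and the gap between them was not tested.

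**Figure D2:**
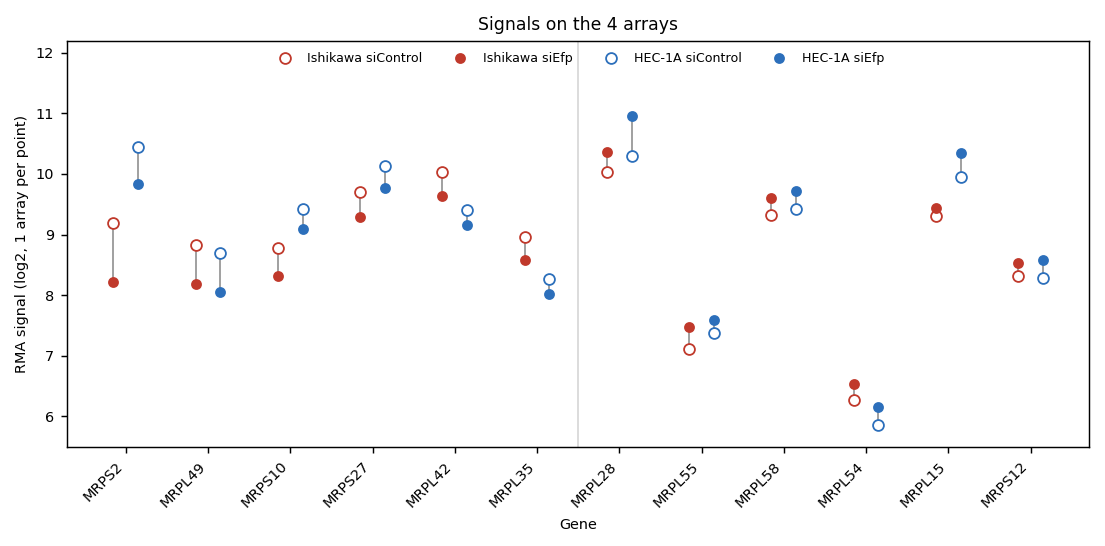
RMA signal (log2) on each of the 4 arrays, 1 point per array, for 6 members that were lower and 6 that were higher in siEfp in both lines, with open points for siControl, filled points for siEfp and a line joining the arrays of 1 cell line. By that choice the filled point lies on the same side of the open one in both lines for all 12 genes. In MRPS2 and MRPL35, for example, the cell lines lie further apart than the siRNAs.

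The members were also split by evolutionary origin, as listed here, and by the presence of pseudogenes. The list counted MRPS18A and MRPS18B as mitochondria-specific, although they are related to a bacterial protein. It counted MRPL55 among those with a bacterial counterpart, which was not checked, so the split is approximate. As listed, the 43 members with a bacterial counterpart had a median difference of 0.062 in Ishikawa and 0.114 in HEC-1A. The 30 mitochondria-specific members had 0.052 and 0.070. For 38 members the human genome has pseudogenes of their name, 94 in all, and near-identical copies can share probes, so their values are uncertain. The median was 0.037 and 0.134 for these 38 members, and 0.071 and 0.049 for the 35 members without such copies. MRPS2, MRPS27 and MRPL28 belong to the 35, while MRPL49 has 2 pseudogenes of its name, MRPS10 has 3, MRPL35 has 4 and MRPL42 has 6.

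The MRPS18 family consists of 3 paralogous genes related to a single bacterial protein, and their products sit at different places, MRPS18A in the large subunit and the others in the small subunit. MRPS18A was 10.10 and 10.30 in Ishikawa and 10.50 and 10.45 in HEC-1A. MRPS18B was 9.01 and 9.25 in Ishikawa and 8.78 and 9.02 in HEC-1A. MRPS18C, the dimmest member, was 6.21 and 6.24 in Ishikawa and 5.42 and 5.75 in HEC-1A. MRPS18B was thus higher in siEfp by 0.24 in each line, whereas MRPS18A was higher by 0.20 in Ishikawa and lower by 0.05 in HEC-1A. MRPS18B has 3 probe sets and MRPL20 has 2, and in each gene these hold identical values, so they count as a single measurement. MRPL36 has 2 probe sets that gave 0.14 and 0.20 in Ishikawa, and 0.096 and 0.319 in HEC-1A. MRPS30, which despite its name sits in the large subunit, had nearly the same signal in both conditions, 8.42 and 8.39 in Ishikawa and 9.31 and 9.35 in HEC-1A.

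The lines shared the direction of the difference in 45 of the 73 members. In 33 members (45.2%) siEfp was higher in both lines, where 31.1% of all genes were, and in 12 members (16.4%) it was lower in both, where 26.7% of all genes were. The other 28 members (38.4%) had opposite signs, where 41.8% of all genes did. Of the genes with at least the median signal, 31.3% were higher in both lines, 32.9% lower in both and 35.7% of opposite sign. MRPS2, MRPL49, MRPS10 and MRPS27 were at least 1.2-fold lower in both lines, which is 5.48% of the members where 4.95% of all genes were. MRPL28, MRPL54 and MRPL58 were at least 1.2-fold higher in both, which is 4.11% where 3.48% of all genes were. Across the 73 members the differences of the lines had a Pearson r of 0.648 and a Spearman rho of 0.398. Without MRPS2 and MRPL49 they were 0.494 and 0.346 over 71 members, and across all genes 0.328 and 0.244. Across the genes with at least the median signal, to which 71 members belong, they were 0.520 and 0.435. These are correlations across genes, which are not independent replicates, and the 4 arrays are on a common RMA scale.

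**Figure D3:**
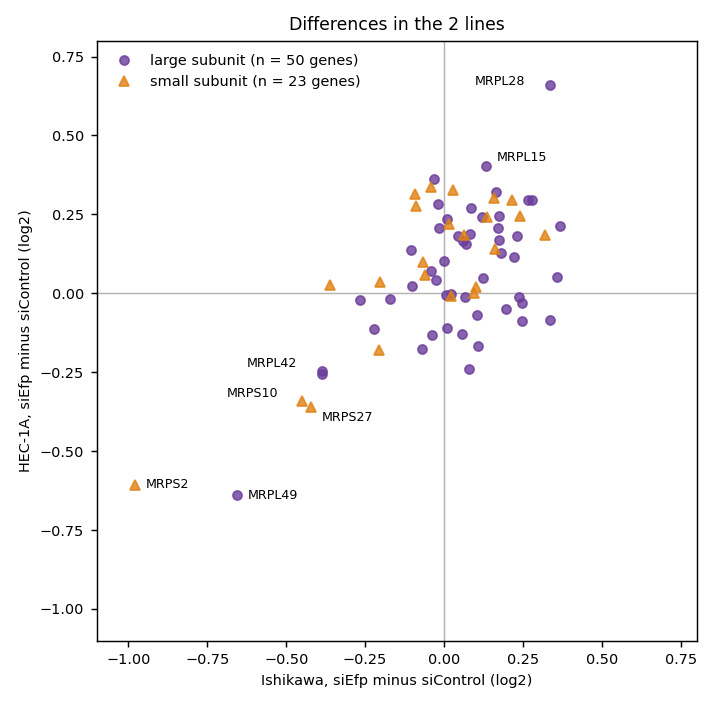
Difference between siEfp and siControl (log2) in Ishikawa on the horizontal axis against that in HEC-1A on the vertical axis, with 1 point per member, circles for the large subunit and triangles for the small subunit. MRPS2 and MRPL49 lie apart at the lower left and MRPL28 at the top right, and most other members lie within 0.4 of 0 on each axis.

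With the lines taken as replicates of a single effect, limma with the line as a block gave a test over all 18417 genes with 1 residual degree of freedom. It called 0 of the 73 members at an adjusted p under 0.05, where it called 0.163% of all genes, 0.157% lower and 0.00543% higher. At an unadjusted p under 0.05 limma had 7 members (9.59%), against 11.97% of all genes in either direction. Of the genes with at least the median signal, to which 71 members belong, it had 15.995%. Of the 7 members 6 were lower, where 6.79% of all genes were, and 1 was higher, where 5.19% of all genes were. The 7 members were MRPS2, MRPL49, MRPS10, MRPS27, MRPL42 and MRPL35 among the lower and MRPL28 among the higher. The limma estimate of MRPS2 was -0.79 with an SE of 0.141 and an adjusted p of 0.112. For MRPL49 limma gave -0.65 with an SE of 0.120 and an adjusted p of 0.121, and for MRPL28 it gave 0.50 with an SE of 0.136 and an adjusted p of 0.235. Over the alternative settings the adjusted p in limma ran from 0.00488 to 1 for MRPS2, from 0.00891 to 1 for MRPL49 and from 0.0426 to 1 for MRPL28. When the genes dimmer than the median were dropped, limma called 615 of the 9209 genes left. Of the 71 members left it called these 3. For MRPS10 and MRPS27 the limma estimates were -0.40 and -0.39, each with an adjusted p of 0.289. The spread behind these p-values is the disagreement of the lines in their siRNA difference, drawn towards the spread over all genes. They do not measure the spread between cultures or between arrays of 1 condition. The labels do not say whether the arrays come from separate cultures.

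The promoters of these genes share short motifs of known regulators. NRF1 and the ETS factor NRF-2, which is also called GABP, are known to drive nuclear genes for mitochondrial proteins, and YY1 binds many promoters at their start. RefSeq promoters of GRCh38.p14, with 250 bases before and 50 after the annotated start, matched 66 of the 73 members. They were searched on both strands for NRF1 (GCATGCG), the ETS core (CCGGAAG) and YY1 (GATGGCG), none of which contains another, although an NRF1 match can be read on both strands at once because its core is a palindrome. The ETS core was found in 28 members (42.4%), against 14.2% of the promoters of protein-coding genes and 10.7% of all promoters. YY1 was found in 15 members (22.7%), against 5.71% and 4.35%, and NRF1 in 7 members (10.6%), against 5.14% and 4.13%. In all, 41 of 66 members (62.1%) held at least 1 of these motifs, against 22.3% of coding and 17.2% of all promoters. For comparison, the E-box CACGTG was in 9.09% of the members and 8.88% of coding promoters, the SP1 box GGGCGG in 59.1% and 58.5%, and the CCAAT box in 30.3% and 36.4%. TATAAA was in 3.03% of the members, which were MRPL54 and MRPS15, and in 9.63% of coding promoters. A match is a description of letters and does not show that a factor binds there.

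The matches below come from some of the members that were lowest or highest in both lines. For each motif the match nearest to the start is shown, as 27 bases on the gene's strand with the motif in capitals. The CTTCCGG of MRPL28 and MRPL54 is the ETS core read on the other strand. The windows are chr9:135500631-135500657 on the plus strand for MRPS2, chr6:42217867-42217893 and chr6:42217834-42217860 on the minus strand for MRPS10, and chr12:93467514-93467540 on the plus strand for MRPL42. Those of the higher genes are chr16:370515-370541 on the minus strand for MRPL28, chr17:75012652-75012678 for MRPL58, chr19:3762651-3762677 for MRPL54 and chr19:38930929-38930955 for MRPS12, the last 3 on the plus strand.
MRPS2, YY1: gccccgcgcgGATGGCGacggaagggg
MRPS10, ETS core: cgctgtaaccCCGGAAGcaatcctgag
MRPS10, YY1: ggaccggcaaGATGGCGgcgcggacag
MRPL42, YY1: attgaaacaaGATGGCGggttcgtggt
MRPL28, ETS core: ggcagatcggCTTCCGGttccggtggg
MRPL58, ETS core: gaagcgcccgCCGGAAGcagtcgcaag
MRPL54, ETS core: ccactgacgtCTTCCGGaaacgtgcac
MRPS12, ETS core: cggatagcgcCCGGAAGaggctagaag
With the first transcribed base as 1, the capitals start at -41 in MRPS2, at -22 and 12 in MRPS10 and at 11 in MRPL42. They start at 8 in MRPL28, at -8 in MRPL58, at -21 in MRPL54 and at -5 in MRPS12. MRPL58 held a further ETS core on the other strand at -193, which is not shown. MRPS18B, also among the highest in both lines, held an NRF1 match at -23 and a YY1 match at 26, which are not shown. MRPL49, MRPS27 and MRPL55 held none of the 3 motifs in the promoter searched. The 15 members with a YY1 match had a median difference of -0.031 in Ishikawa and -0.049 in HEC-1A, and the other members had 0.062 and 0.114. With an ETS core the median was 0.061 and 0.140, and without it 0.009 and 0.031. These medians were chosen with the members' values known and have no test.

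Of the factors named for these motifs, NRF1, GABPA and YY1 had similar signals with either siRNA. Other ETS factors were not examined here. NRF1 was 6.93 and 6.91 in Ishikawa and 6.82 and 6.78 in HEC-1A, and GABPA, the DNA-binding subunit of GABP, was 7.44 and 7.36 in Ishikawa and 7.17 and 7.12 in HEC-1A. YY1 was 9.45 and 9.57 in Ishikawa and 9.51 and 9.52 in HEC-1A. GABPB1, the partner of GABPA, differed by 0.23 and 0.06. PPARGC1A, a coactivator of mitochondrial biogenesis, was 9.14 and 9.61 in Ishikawa but 3.87 and 3.87 in HEC-1A, where it lay below the lower quartile of all genes. MYC, a known activator of ribosome genes, had 9.67 in siControl and 8.67 in siEfp in Ishikawa, and 10.67 and 10.48 in HEC-1A. Of the 9 regulators, limma called 0 for siEfp at an adjusted p under 0.05, and the adjusted p of MYC was 0.322.

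Several members start close to another gene on the opposite strand. Within 1000 bases of the start, 17 members had such a protein-coding neighbour in the RefSeq table, and 15 of these pairs had a partner outside the family. The partner had the same direction as the member in 12 of 15 pairs in Ishikawa and in 6 of 15 in HEC-1A. The share for unrelated pairs was not computed, and 52.2% and 52.1% of all genes were higher in siEfp. In either line 0 partners reached 1.5-fold. Of all genes, 3.72% were that much lower and 1.49% higher in Ishikawa, and 2.04% and 1.34% in HEC-1A. MRPL49 starts 49 bases from FAU, which encodes a cytosolic ribosomal protein fused to a ubiquitin-like one. FAU differed by -0.15 in Ishikawa and 0.07 in HEC-1A, against -0.66 and -0.64 for MRPL49. MRPS2 starts 813 bases from PIERCE1, which differed by 0.08 and 0.43 while MRPS2 differed by -0.98 and -0.61. MRPS27 starts 133 bases from PTCD2, a gene for a mitochondrial protein with pentatricopeptide repeats. PTCD2 differed by -0.31 and -0.17, in the direction of MRPS27. MRPL46 and MRPS11, which start 320 bases apart, differed by -0.04 and -0.06 in Ishikawa, and by -0.13 and 0.06 in HEC-1A.

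Proteins of the ribosome that carry other names were seen too. CHCHD1, a small-subunit protein with a twin cysteine motif, was 7.89 and 8.29 in Ishikawa and 7.80 and 8.13 in HEC-1A, so the siEfp array was higher by 0.40 and 0.33. DAP3, a GTP-binding protein of the small subunit that is also linked to cell death, was 8.46 and 8.40 in Ishikawa and 8.92 and 8.93 in HEC-1A. PTCD3 differed by -0.07 and -0.10, and GADD45GIP1, which lies near the exit of the peptide tunnel, by 0.17 and -0.02. Of these 4 genes limma called 0 for siEfp, and the adjusted p of CHCHD1 was 0.322.

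Among the genes for building the ribosome, most were lower in siEfp in Ishikawa. Of 27 assembly and RNA-modifying factors, 20 (74.1%) were lower and 7 higher in Ishikawa, with a median of -0.160. In HEC-1A 13 (48.1%) were lower and 14 higher, with a median of 0.017. Of all genes 47.6% were lower in Ishikawa and 47.7% in HEC-1A. Of genes with at least the median signal 54.4% and 47.1% were. ERAL1, a chaperone of the small-subunit RNA, went from 10.35 to 9.80 in Ishikawa and from 10.91 to 10.56 in HEC-1A. MPV17L2, an inner membrane protein needed for assembly, went from 10.57 to 10.17 and from 9.90 to 9.76. TRUB2, a pseudouridine synthase, differed by -0.54 in Ishikawa and 0.21 in HEC-1A. ERAL1 and MPV17L2 were thus lower in siEfp in both lines and TRUB2 in Ishikawa alone, and limma gave an adjusted p of 0.246 for ERAL1, 0.479 for MPV17L2 and 0.804 for TRUB2.

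The 14 translation factors had a median difference of 0.010 in Ishikawa and 0.104 in HEC-1A, with 8 and 9 of them higher. MRRF, the factor that recycles the ribosome after termination, was lower by 0.43 and 0.14, and GFM1, an elongation factor, differed by -0.27 and 0.26. The 18 mitochondrial aminoacyl-tRNA synthetases had medians of -0.052 and 0.004, with 10 and 9 of them lower. Of all genes 52.2% and 52.1% were higher, and 47.6% and 47.7% lower. EARS2, which charges the tRNA for glutamate, went from 7.71 to 7.04 in Ishikawa and from 8.61 to 7.90 in HEC-1A, and its adjusted p in limma was 0.112. TARS2, for threonine, was higher by 0.33 and 0.62. The 8 genes for copying and transcribing mitochondrial DNA had medians of -0.081 and 0.039. In all of these lists limma called 0 genes for siEfp at an adjusted p under 0.05. The messenger RNAs that the mitochondrial ribosome translates were not analysed here, since 0 of the 13 genes had a probe set with their name.

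Complex I, the respiratory enzyme with the most nuclear subunits, had 26 of 33 genes higher and 7 lower in Ishikawa, with a median of 0.164, and 22 higher and 11 lower in HEC-1A, with a median of 0.159. The 67 cytosolic ribosomal protein genes had medians of -0.004 and 0.059, with 30 higher and 37 lower in Ishikawa and 48 higher and 19 lower in HEC-1A. The share higher was 78.8% and 66.7% for complex I and 44.8% and 71.6% for the cytosolic genes. Of all genes 52.2% and 52.1% were higher, and of genes with at least the median signal 45.5% and 52.9%. The medians of the mitochondrial ribosomal protein genes lay between those of complex I and those of all genes in both lines.

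**Figure D4:**
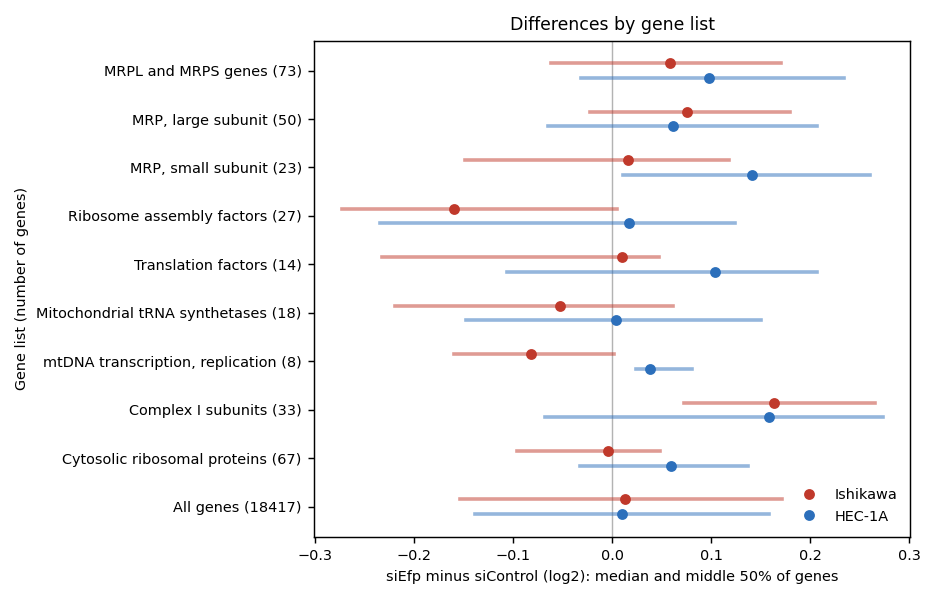
Median (point) and middle 50% of genes (bar) of the difference between siEfp and siControl (log2) for the mitochondrial ribosomal protein genes, their subunits and related gene lists, with the number of genes in brackets and Ishikawa in red and HEC-1A in blue. The medians lie between -0.160 and 0.164 and most bars overlap 0.

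More members were called between the lines than between the siRNAs. In this comparison the siControl and siEfp arrays of a line stood in for its replicates. With the siRNA as a block, limma compared the 2 Ishikawa arrays with the 2 HEC-1A arrays and called 25 of 73 members (34.2%) at an adjusted p under 0.05, where 35.2% of all genes were called. Of these, 15 were lower in Ishikawa, where 18.3% of all genes were, and 10 were higher, where 17.0% of all genes were. The median over the members was -0.072 for Ishikawa minus HEC-1A, against -0.014 for all genes and -0.061 for genes with at least the median signal, of which limma called 48.3%. In the small subunit 8 members were lower in Ishikawa and 2 higher, and in the large subunit 7 were lower and 8 higher. The signs of the 25 differences were the same in the siControl arrays and in the siEfp arrays, which their selection by limma all but fixed in advance.

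MRPS2 differed most between the lines, by -1.44 with an SE of 0.141 and an adjusted p of 0.000441 in limma, a level 2.71-fold lower in Ishikawa. MRPS30 was 0.93 lower in Ishikawa (adjusted p 0.00153 in limma), at 8.42 and 8.39 against 9.31 and 9.35. MRPS21 was 9.76 and 9.77 in Ishikawa and 10.56 and 10.78 in HEC-1A, and MRPS9 was 7.07 and 6.86 against 7.81 and 7.84. MRPS22, which is needed for small-subunit assembly, was 6.91 and 7.003 against 7.73 and 7.73. For each of these genes both Ishikawa arrays lay below both HEC-1A arrays. In the other direction, MRPL34 was 9.51 and 9.76 in Ishikawa and 8.46 and 8.43 in HEC-1A, 2.27-fold higher (adjusted p 0.000784 in limma). MRPL27 was 8.36 and 8.58 against 7.63 and 7.74. MRPS18C was 0.64 higher in Ishikawa, and MRPL35 and MRPL42 were 0.62 and 0.56 higher. MRPL35 and MRPL42, and on the other side MRPS2, MRPS10 and MRPS27, were called between the lines and were also lower in siEfp within each line, whereas MRPL49 was not called between the lines (0.13, SE 0.120, adjusted p 0.481 in limma).

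Genes outside the family that differed between the lines included TFAM, which packages mitochondrial DNA, at 7.73 and 7.44 in Ishikawa and 9.17 and 9.20 in HEC-1A. All 8 genes for mitochondrial DNA transcription and replication were lower in Ishikawa, with a median of -0.744, and limma called 5 of them. Of the 27 assembly factors 20 were lower in Ishikawa, with 11 called lower and 1 called higher. Complex I subunits went the other way, with 29 of 33 higher in Ishikawa, 13 called higher and 3 called lower. The share called was 62.5% for mitochondrial DNA transcription and replication, 44.4% for the assembly factors and 48.5% for complex I. Of all genes limma called 35.2%, and of genes with at least the median signal 48.3%.

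**Figure D5:**
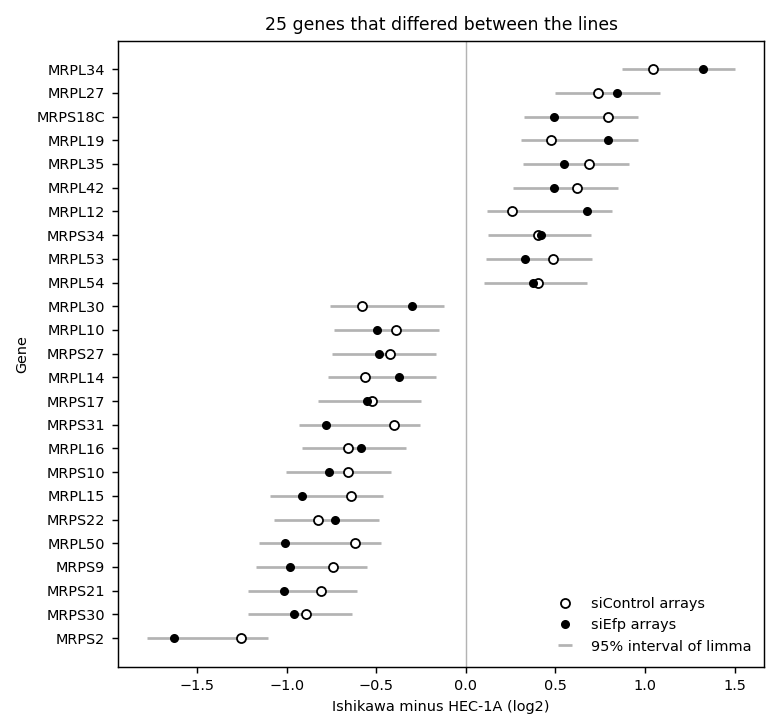
Ishikawa minus HEC-1A (log2) for the 25 members that limma called between the lines, with an open point for the siControl arrays, a filled point for the siEfp arrays and a grey bar for the 95% interval of the limma estimate. The open and filled points lie on the same side of 0 for all 25 genes, which their selection by limma all but fixed in advance. They run from MRPS2 at the lowest values to MRPL34 at the highest.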

How the data were processed

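The authors deposited log2 signals per probe set on 4 arrays, made with Affymetrix Expression Console and RMA per the submitters' processing notes. No source used here gives versions or the genome build. RMA brings the arrays to a common distribution, so a shift of all genes together would be lost, and it compresses differences of dim probe sets. The methods name a GeneChip exon array, while the probe sets match a GeneChip gene array. Of 33297 probe sets, 19460 with exactly 1 gene symbol were used, 1754 with several symbols and 12083 with none were left out. Probe sets of a gene were averaged, which gave 18417 genes. RefSeq (GRCh38.p14) held the gene ID of 19429 probe sets and changed 0 symbols. The number of arrays limits the precision.

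Genes were counted at 1.5-fold. limma 3.58.1 in R 4.3.3 was fitted with siRNA and line as terms, with Benjamini-Hochberg adjustment over all genes, and had 1 residual degree of freedom with 5.54 prior degrees of freedom. Python 3.11.15, numpy 2.4.6, pandas 2.3.3 and matplotlib 3.10.9 did the rest. Members, lists and alternatives were chosen with earlier results of these data known. Named members are those past 1.5-fold, those with the lowest and highest differences per line and in both, those that differed most between the lines or were called by limma, those with several probe sets, the MRPS18 genes, and MRPS30 and MRPL12. Other genes are the ends of their lists. MRPL46, MRPS11, MRPL47, MRPL52 and the neighbouring genes FAU, PIERCE1 and PTCD2 fall outside this rule and were named after their values were seen. Some members that it covers, such as MRPL53 and MRPS33, are not described in the Results. Alternatives were centring, a second quantile normalization, leaving out dim genes, the brightest probe set, other thresholds, other member sets and, for limma, no block and an intensity trend.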

Additional observations from a re-analysis of the deposited data

Results flagged for a closer look

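MRPL30 and MRPL47 had differences of at least 0.1 in opposite directions in the cell lines. MRPL30 was higher in siEfp in Ishikawa (0.108) and lower in HEC-1A (-0.167). MRPL47 was lower in Ishikawa (-0.105) and higher in HEC-1A (0.138). The difference between the lines was not tested, since each condition has 1 array.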

How the results depend on the processing

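With a 2-fold threshold 0 members were lower in Ishikawa, 0 lower in HEC-1A and 0 higher in HEC-1A. With a 1.2-fold threshold 8 members were lower and 7 higher in Ishikawa, and 4 lower and 14 higher in HEC-1A. limma called 3 of 71 members for siEfp when the genes dimmer than the median were dropped, among 615 of the 9209 genes left. With an intensity trend it called 1 member, MRPS2, among 182 of all genes, against 0 members and 30 genes as reported. A second quantile normalization gave 44 genes and 0 members, and no block gave 0 genes and 0 members, with 1 member at an unadjusted p under 0.05. For the lines, limma called 17 to 33 members over the alternatives. The median difference ran from 0.046 to 0.0996 in Ishikawa, highest after the second quantile normalization, and from 0.049 to 0.098 in HEC-1A. Members below 0 numbered 23 to 30 in Ishikawa and 26 to 27 in HEC-1A, alternatives chosen after seeing the data. The brighter probe set of MRPL36 gave 0.319 in HEC-1A. The cause of these shifts was not tested. The cell line was the block in limma, and no replicate could be left out with 1 array per condition.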

Other observations

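Probe sets shared with another gene were left out of the set and cannot be assigned to either gene. The probe set of MRPS6 and SLC5A3, a myo-inositol transporter gene, went from 10.21 to 9.57 in Ishikawa and from 9.56 to 9.41 in HEC-1A. That difference of -0.64 in Ishikawa would be the third furthest down there, after MRPS2 and MRPL49, while in HEC-1A it was -0.15. The probe set of MRPL51 and SPTLC1 differed by -0.06 and 0.14, and the probe set of MRPS28 and TPD52 by 0.15 and 0.04. The probe set of MRPS24 and its readthrough gene with URGCP differed by 0.10 and -0.02. The pseudogene MRPS31P5 had signals between 5.45 and 5.57 and differences of -0.08 and -0.05.

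EARS2, MRPS2 and MRPL49 were the genes of mitochondrial translation among these lists that were at least 1.5-fold lower in both lines, with -0.66 and -0.70 for EARS2. CDH1, the E-cadherin gene, differed by -0.60 in Ishikawa from a signal of 10.2, and by -0.33 in HEC-1A from a signal below the lower quartile of all genes.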
